A study of Gossypium hirsutum with 6 samples.

Results

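The *MML* genes of upland cotton encode MYB-MIXTA-like transcription factors, and 6 of them are described here, out of 65894 genes in the deposited table. They are *MML3* on D12 (Gh_D12G1628), *MML3* on A12 (Gh_A12G1503), *MML4* on A12 (Gh_A12G1504), *MML8* on A13 (Gh_A13G0688), *MML8* on D13 (Gh_D13G0798) and *MML9* on A13 (Gh_A13G0689). The text of the study does not pair Gh_A13G0688 and Gh_A13G0689 with the names *MML8* and *MML9*. The order of the IDs in the list used here would make Gh_A13G0689 *MML8* and Gh_A13G0688 *MML9*, so these names may be swapped. Below, both names stand for the IDs as given here. The letter in an ID gives the A or D subgenome of this tetraploid, and the digits after it give the chromosome and the order of the gene along it. The IDs were taken from the study, which listed these genes because they were lower in the fiberless mutant in the same libraries. The difference between the lines is therefore given as a description with no test.

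Ovules of *Xu142fl*, a fiberless mutant, and of Xu142, the wild type variety with fiber, were collected from field-grown plants at -3 and -1 DPA (days post anthesis). Ovules of both stages were mixed, and 3 libraries were sequenced for each line as biological replicates. Expression was given as FPKM, which divides the fragments of a gene by its transcript length and by the mapped reads of the library, so levels can be compared between genes per length. All 6 genes averaged 0.1 FPKM or more over the 6 libraries and were among the 56395 genes tested. The table pairs no ID with a name, and markers of the ovule were therefore not checked.

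MYB-MIXTA-like proteins act in the differentiation of epidermal cells, and in cotton they belong to a lineage found in the *Malvaceae*. Cotton fibers are single cells that grow out from the epidermis of the ovule, and lint fibers start to form around the day of flowering. *MML3*, formerly *GhMYB25-like*, is known for its role in fiber initiation, and its A12 copy was mapped as the gene of a naked seed mutant. *MML4* is known for lint formation, and its D12 copy was mapped as a fiberless locus of *Xu142fl*. No ID was given for that D12 copy in the sources used here, and it is not among the 6 genes. The study reported that this copy was not among its differentially expressed genes.

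The study designed primers for RT-PCR of each *MML* gene, and those for the 4 genes described here are shown because they are the sequences with which the study set out to amplify each of these genes. Each primer is written 5′ to 3′. Capitals mark the bases that the forward primers of *MML4* and *MML9* share at the same position from the 5′ end.
GhMML3-F: tcatacagggcggaaaatat
GhMML3-R: gaaccagatggggaagca
GhMML4-F: TTgAAcGATGTGGaAAGAGc
GhMML4-R: caatacccattttgattagcct
GhMML8-F: tggacggctgaggaagac
GhMML8-R: aagaagggcatggagttga
GhMML9-F: TTcAAaGATGTGGcAAGAGtt
GhMML9-R: gtaaatgagcagcgataccc
The 2 forward primers with capitals are identical at 16 of 20 positions, the highest number for any pair among the 10 forward primers of the family. The next pair, *MML4* and *MML8*, shares 10 of 18 positions. No primer in the table is assigned to a subgenome, and the primers played no part in the FPKM below. By RT-PCR in *Xu142fl* and a fuzzless mutant with lint, the study detected neither *MML8* nor *MML9*. It reported *MML3* and *MML4* lower in *Xu142fl* than in that mutant by qRT-PCR. Xu142 was not part of that comparison.

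The D12 copy of *MML3* was close to silent in the mutant. Gh_D12G1628 had 0.18, 0.37 and 0.28 FPKM in *Xu142fl* replicates 1 to 3, against 61.49, 54.55 and 51.83 FPKM in Xu142 replicates 1 to 3. The lowest Xu142 library was 140 times as high as the highest *Xu142fl* library. The mean was 0.277 ± 0.0950 FPKM in *Xu142fl* and 56.0 ± 4.98 FPKM in Xu142 (SD, n = 3 each). The log2 difference, *Xu142fl* minus Xu142 on the scale of log2(FPKM + 0.1), was -7.25 with a standard error of 0.21. It was number 7 among the largest decreases of the 56395 genes tested. Among all genes of a library, the gene stood at a percentile of 19.4 to 24.1 in *Xu142fl* and of 95.7 to 96.5 in Xu142.

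The A12 copy of *MML3* was lower in the mutant but stayed well expressed. Gh_A12G1503 had 7.76, 6.96 and 8.34 FPKM in *Xu142fl*, against 44.37, 35.25 and 36.67 FPKM in Xu142, and the lines did not overlap. The ratio of the means, Xu142 over *Xu142fl*, was 5.04, and the log2 difference was -2.32 (standard error 0.12). The gene kept a percentile of 62.5 to 66.7 in *Xu142fl*, against 92.8 to 94.6 in Xu142, and was number 602 among the largest decreases.

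*MML4* lies next to *MML3* on A12 by its gene number and was weakly expressed in both lines. Gh_A12G1504 had 0.46, 0.29 and 0.23 FPKM in *Xu142fl*, against 1, 2.04 and 1.30 FPKM in Xu142. The lines did not overlap, but the lowest Xu142 library was only 2.17 times as high as the highest *Xu142fl* library. This was the narrowest gap of the 6 genes. The log2 difference was -1.84 (standard error 0.35).

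Both copies of *MML8* had low levels that were lower still in the mutant. The A13 copy, Gh_A13G0688, had 0.38, 0.36 and 0.22 FPKM in *Xu142fl*, against 2.52, 1.38 and 1.48 FPKM in Xu142. The D13 copy, Gh_D13G0798, had 0.21, 0.20 and 0.05 FPKM in *Xu142fl*, against 2.14, 0.89 and 1 FPKM in Xu142. In both copies Xu142 replicate 1 was the highest library and *Xu142fl* replicate 3 the lowest. The log2 differences were -2.15 (standard error 0.32) on A13 and -2.48 (standard error 0.45) on D13. At the levels of the mutant, the pseudocount of 0.1 is of the size of the values, and these differences understate the ratios of the means, which were 5.60 on A13 and 8.76 on D13.

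*MML9* lies next to *MML8* on A13 and was nearly undetected in the mutant. Gh_A13G0689 was listed at 0, 0.04 and 0 FPKM in *Xu142fl*, against 9.81, 3.34 and 5.86 FPKM in Xu142. With 2 of the 3 *Xu142fl* libraries listed at 0, no ratio of means is given. The log2 difference of -5.72 (standard error 0.42) rests on the pseudocount, and was number 34 among the largest decreases. Its percentile in Xu142 ran from 49.0 to 70.3, a wider range than that of the *MML3* copies.

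**Figure D1:**
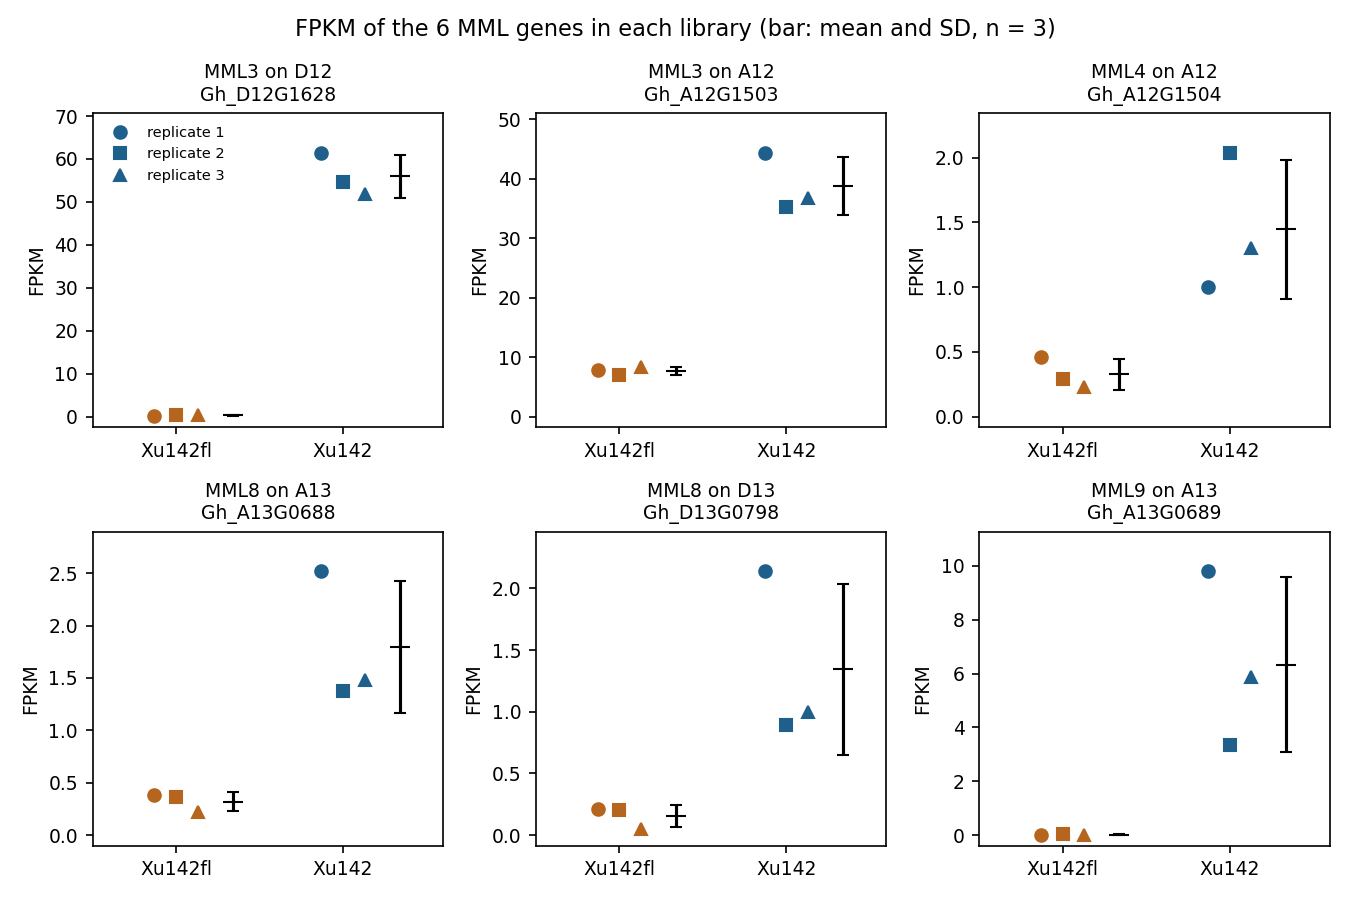
FPKM (vertical axis, a separate linear scale for each gene) of the 6 *MML* genes in the 3 *Xu142fl* libraries (orange, left) and the 3 Xu142 libraries (blue, right). The symbol gives the replicate number and the black bar the mean and SD (n = 3), and every *Xu142fl* library lies below every Xu142 library in all 6 panels.

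In all 6 genes there was no overlap between lines, lower in *Xu142fl*, which held for 19.5% of the genes tested. In limma with Benjamini-Hochberg adjustment over all genes tested, 3 of the 6 (both *MML3* copies and *MML9*) were lower by 2-fold or more with an adjusted p within 0.001, where 0.555% of the genes tested were lower at these limits. With 0.05 in place of 0.001 all 6 met the limits, where 4.47% of the genes tested were lower. Since the study chose the 6 genes on this contrast, these counts are not evidence of a change. The median log2 difference was -2.40 over the 6 genes and 0.01 over all genes tested. These are bulk ovules, in which fewer cells of a type and less RNA per cell cannot be told apart.

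**Figure D2:**
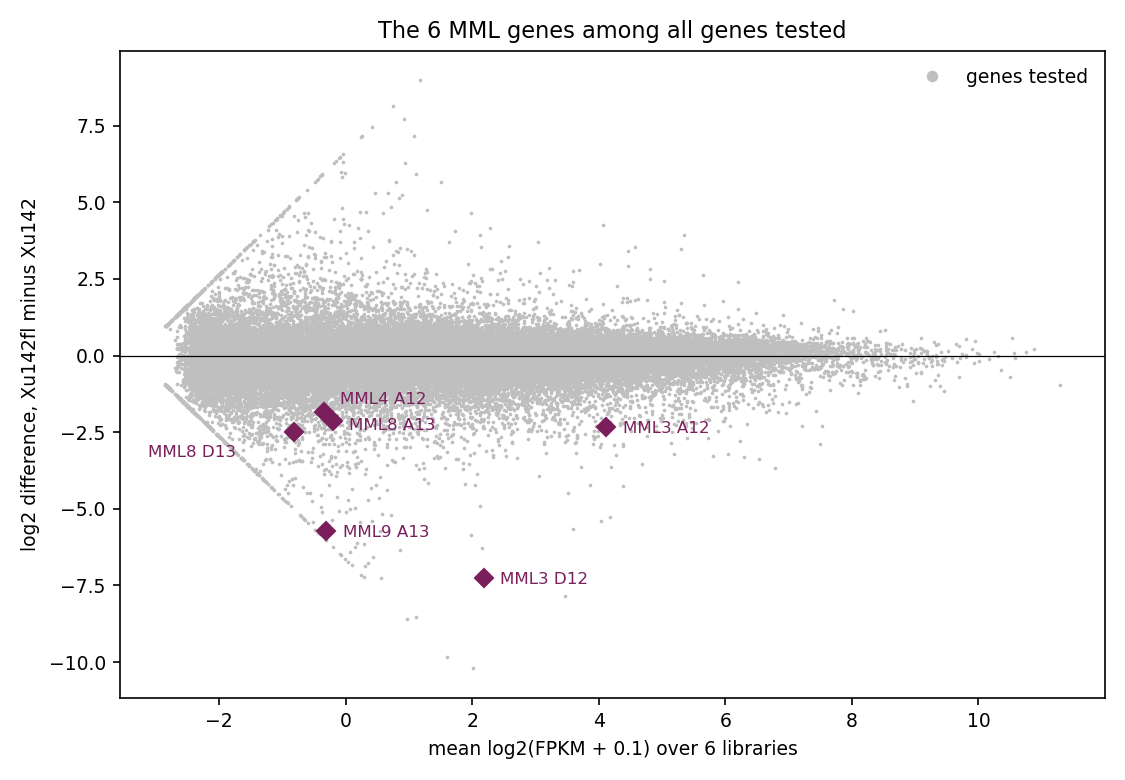
Log2 difference, *Xu142fl* minus Xu142 (vertical axis), against the mean log2(FPKM + 0.1) over the 6 libraries (horizontal axis), for the 56395 genes tested (grey points) and the 6 *MML* genes (purple diamonds). *MML3* on D12 lies at -7.25 and *MML9* at -5.72, and the remaining 4 genes lie between -2.48 and -1.84.

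The order of the levels differed between lines. In *Xu142fl* the A12 copy of *MML3* was highest, at a mean of 7.69 ± 0.693 FPKM (SD, n = 3). It was followed by *MML4* (0.327 ± 0.119), *MML8* on A13 (0.320 ± 0.0872), *MML3* on D12 (0.277 ± 0.0950) and *MML8* on D13 (0.153 ± 0.0896), and neighbours in the order among these 4 overlapped. *MML9* was lowest. In Xu142 the order was *MML3* on D12, *MML3* on A12 (38.8 ± 4.91), *MML9* (6.34 ± 3.26), *MML8* on A13 (1.79 ± 0.631), *MML4* (1.45 ± 0.535) and *MML8* on D13 (1.34 ± 0.692). In Xu142 the first 4 of these did not overlap with each other in the order given, while *MML8* on A13, *MML4* and *MML8* on D13 overlapped.

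The summed FPKM of the 6 genes was 8.78 ± 0.486 in *Xu142fl* and 105.6 ± 13.6 in Xu142 (SD, n = 3 each). *MML3* on A12 made up 87.5 ± 3.53% of this sum in *Xu142fl* and 36.7 ± 0.607% in Xu142. *MML3* on D12 made up 3.19 ± 1.25% in *Xu142fl* and 53.2 ± 2.67% in Xu142. Together the *MML3* copies thus held most of the summed FPKM of these 6 genes in both lines. The remaining *MML* genes of cotton are not in this sum. The *MML9* share was at most 0.487% in a *Xu142fl* library, against 3.43 to 8.09% in Xu142.

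The copies of *MML3* in the A and D subgenomes were compared within each library. The D12 copy held 2.27 to 5.05% of the *MML3* FPKM in the *Xu142fl* libraries, against 58.1 to 60.7% in the Xu142 libraries. On the log2 scale, D12 minus A12 was -4.40 ± 0.46 in *Xu142fl* and 0.53 ± 0.08 in Xu142 (SD, n = 3 each). The D12 copy was thus the lower in each *Xu142fl* library and the higher in each Xu142 library. RSEM divided the reads that fit both copies, so these shares are estimates of the authors' pipeline.

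With Gh_A13G0688 taken as the A13 copy, the copies of *MML8* kept their order in both lines. D13 minus A13 was -0.63, -0.62 and -1.09 in *Xu142fl* replicates 1 to 3, against -0.23, -0.58 and -0.52 in Xu142 replicates 1 to 3. The D13 copy was the lower in 6 of 6 libraries, by a mean of 0.61 on the log2 scale (exact two-sided sign-flip test, p = 0.031, the smallest that 6 libraries allow, and 0.063 adjusted over the 4 gene pairs compared). The D13 share of the *MML8* FPKM was 29.9 ± 9.89% in *Xu142fl* and 41.8 ± 3.60% in Xu142. With Gh_A13G0689 as the A13 copy instead, the order changed between lines. The D13 copy was then the higher in each *Xu142fl* library (0.21, 0.20 and 0.05 against 0, 0.04 and 0 FPKM). In Xu142 it was the lower in each library (2.14, 0.89 and 1 against 9.81, 3.34 and 5.86 FPKM). Whether the copies kept their order thus depends on the naming.

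The tandem genes on A12 were far apart in level. *MML3* minus *MML4* was 4.22 ± 0.43 in *Xu142fl* and 4.70 ± 0.65 in Xu142 on the log2 scale, and the libraries of the lines overlapped. *MML3* was the higher in 6 of 6 libraries by a mean of 4.46 (exact two-sided sign-flip test, p = 0.031, 0.063 adjusted over the 4 gene pairs). The tandem genes on A13 changed order. *MML9* minus *MML8* was -1.89 ± 0.33 in *Xu142fl* and 1.68 ± 0.40 in Xu142, so that *MML9* was the higher in each Xu142 library and the lower in each *Xu142fl* library. Within 1 line only 3 libraries can be compared, where the exact test cannot give a p below 0.25. Over all 6 libraries the mean difference of *MML9* and *MML8* was -0.10 (exact two-sided sign-flip test, p = 0.88, adjusted p = 0.88), and that of *MML3* on D12 and A12 was -1.93 (exact test, p = 0.25, adjusted p = 0.33), since both changed sign between lines.

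**Figure D3:**
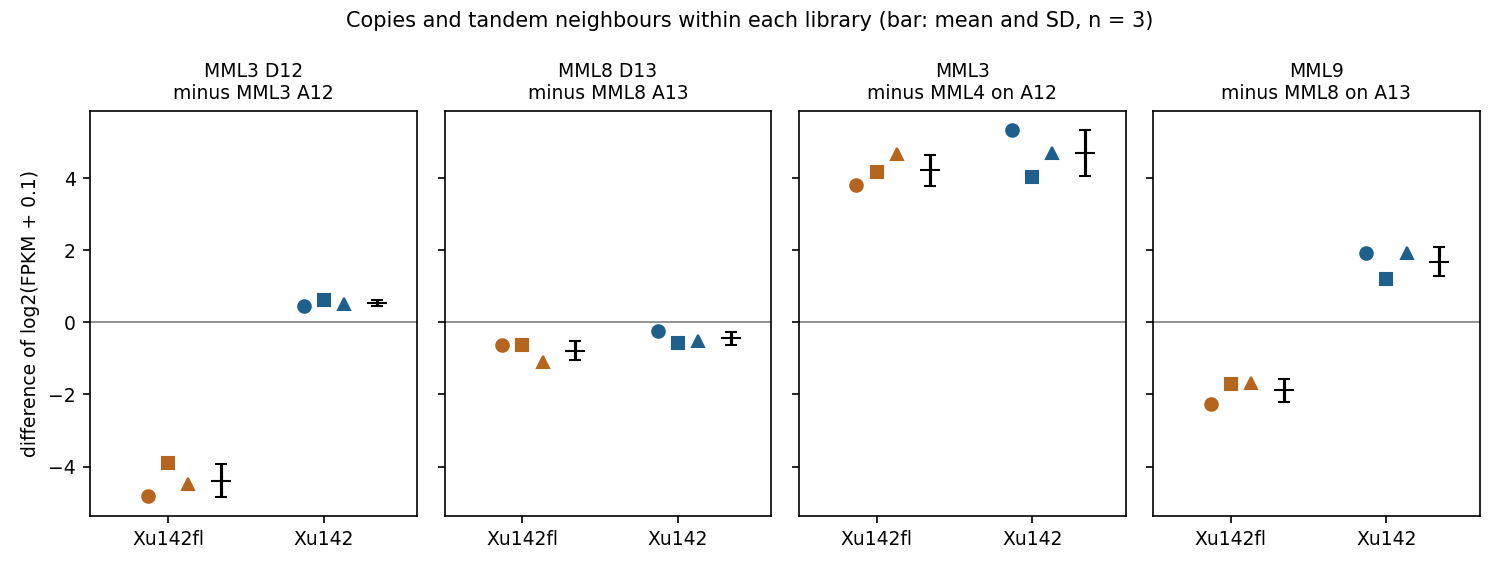
Difference of log2(FPKM + 0.1) between 2 *MML* genes of the same library (vertical axis), for the subgenome copies of *MML3* and *MML8* and the tandem genes of A12 and A13, in *Xu142fl* (orange, left) and Xu142 (blue, right). Circles, squares and triangles are replicates 1, 2 and 3 and the black bar is the mean and SD (n = 3), and *MML3* D12 minus A12 (-4.40 and 0.53) and *MML9* minus *MML8* (-1.89 and 1.68) lie on opposite sides of 0 in the 2 lines.

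Replicates varied by different amounts. In *Xu142fl* the coefficient of variation was 9.01% for *MML3* on A12 and 27.2 to 58.5% for *MML3* on D12, *MML4* and the *MML8* copies. In Xu142 the coefficient of variation was 8.90% for the D12 copy and 12.7% for the A12 copy of *MML3*, and 35.2 to 51.5% for the remaining 4 genes. Xu142 replicate 1 was the highest Xu142 library for 5 of the 6 genes, and replicate 2 the lowest for 4. *MML4* went the other way, with its highest Xu142 value in replicate 2 (2.04 FPKM) and its lowest in replicate 1 (1 FPKM). On the second principal component of all genes tested, which held 23.4% of the variance, *Xu142fl* replicate 1 (100.5) and Xu142 replicate 2 (66.6) stood apart from the remaining libraries (-50.3 to -24.0). *MML4* had its highest value of each line in these 2 libraries, and the part of this component in its level was not tested. Without these 2 libraries, an alternative chosen after seeing the data, the log2 difference of *MML4* was -1.79.

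Profiles were compared as log2(FPKM + 0.1) over the 6 libraries with the mean of each gene removed, and likeness was measured as the root mean square (RMS) difference. Among the 6 genes, Gh_A13G0688 and Gh_D13G0798, taken here as the copies of *MML8*, were the most alike, with an RMS difference of 0.25. *MML3* on A12 and *MML8* on A13 followed with 0.30. The copies of *MML3* differed by 2.48, and *MML3* on D12 and *MML4* by 2.75, the largest value.

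Among genes that averaged 1 FPKM or more, the profile nearest to *MML3* on D12 was that of Gh_A07G2318 (RMS difference 0.21), with 0.20, 0.29 and 0.38 FPKM in *Xu142fl* and 51.30, 49.50 and 51.05 FPKM in Xu142. Next came Gh_A05G1426 (0.24) and Gh_D04G0240 (0.27), both listed at 0 in all 3 *Xu142fl* libraries and at 13.23 to 16.18 FPKM in Xu142. The profile nearest to *MML3* on A12 was that of the predicted new gene BGI_novel_G002402 (0.06), followed by Gh_D06G1344 (0.09) and Gh_A04G0923 (0.10). None of these IDs has a name in the deposited table.

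For *MML4*, Gh_D13G1583 was nearest (RMS difference 0.08), with 0.73, 0.46 and 0.33 FPKM in *Xu142fl* and 1.46, 2.61 and 1.88 FPKM in Xu142. Its highest libraries were the same as those of *MML4*. Gh_A06G1542 (0.14) and Gh_D08G2605 (0.17) came next. For *MML8* on A13 the nearest genes were Gh_D09G2294 and Gh_D11G3351 (0.08 each) and Gh_D05G1916 (0.10), of which Gh_D09G2294 reached 159.17 FPKM in Xu142 replicate 1. For *MML8* on D13 they were Gh_D11G1598 (0.19), Gh_D12G2301 (0.20) and Gh_D02G2045 (0.21). *MML9* had the least close matches, with BGI_novel_G000770 at 0.32, Gh_A13G1727 at 0.33 and Gh_D01G2028 at 0.34. These genes were picked for their likeness, which is given as a description over 6 libraries.

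The genes around the *MML* loci were chosen by their ID numbers alone, up to 10 numbers to each side, and could therefore be tested. Of 66 such genes, 53 averaged 0.1 FPKM or more and were tested. Called genes, with a limma adjusted p within 0.05 and a change of 2-fold or more, numbered 3 of these 53 (5.66%). Over all genes tested 6.14% were called at these limits, so the share around the loci was near the background. The median log2 difference was 0.29 on A12, 0.22 on D12, -0.15 on A13 and -0.08 on D13, and -0.06 over the 53 genes. Without the 2-fold limit, 9 of the 53 genes had an adjusted p within 0.05, of which 4 were on A12, 4 on D12, 1 on D13 and 0 on A13. Before *MML3* on A12, Gh_A12G1495 (log2 difference 0.68, limma adjusted p = 0.045), Gh_A12G1499 (0.57, adjusted p = 0.032) and Gh_A12G1500 (0.82, adjusted p = 0.0077) were higher in *Xu142fl* but under 2-fold. Before *MML3* on D12, Gh_D12G1624 (log2 difference 0.47, limma adjusted p = 0.022) was likewise higher but under 2-fold. These genes were named after their values were seen, and the others with an adjusted p within 0.05 are described below. Gh_A12G1500 had 9.50, 10.46 and 9.08 FPKM in *Xu142fl*, against 4.85, 5.68 and 5.84 FPKM in *Xu142*, and the lines did not overlap. On A13, around *MML8* and *MML9*, limma called 0 of 14 genes, and 3 had an unadjusted p under 0.05. Shares of all genes tested were not computed without the 2-fold limit or at an unadjusted p. Counts of these kinds, here and below, therefore have no background to be read against.

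The genes directly beside the *MML* genes had small log2 differences. Of the 15 genes within 2 numbers of a locus, 13 were tested, their log2 differences ran from -0.54 to 0.40, and limma called 0 of them, with 4 at an unadjusted p under 0.05. Gh_A12G1502, just before *MML3* on A12, had 0.36, 0.34 and 0.43 FPKM in *Xu142fl*, against 0.36, 0.38 and 0.41 FPKM in Xu142. Gh_D12G1627, just before *MML3* on D12, had 6.81, 8.80 and 8.76 FPKM in *Xu142fl*, against 8.73, 6.82 and 8.52 FPKM in Xu142. In both of these genes the lines overlapped. Gh_A12G1505, just after *MML4*, had 0.62, 0.52 and 0.63 FPKM in *Xu142fl*, against 0.82, 0.98 and 0.91 FPKM in Xu142, without overlap. Its log2 difference was -0.54 (limma adjusted p = 0.17). Gh_D12G1629, just after *MML3* on D12, had 14.28, 12.82 and 20.84 FPKM in *Xu142fl*, against 28.39, 21.55 and 19.04 FPKM in Xu142. Its log2 difference was -0.53 (limma adjusted p = 0.16), and the lines overlapped. Gh_A13G0690, just after *MML9*, had 9.53, 8.80 and 8.19 FPKM in *Xu142fl*, against 9.04, 7.77 and 8.35 FPKM in Xu142. Gh_D13G0799, just after *MML8* on D13, was listed at 0 in all *Xu142fl* libraries and at 0.19, 0.09 and 0.09 FPKM in Xu142, and fell under the filter. On D12, Gh_D12G1626 was higher by 0.40 (limma adjusted p = 0.022) and Gh_D12G1630 lower, with a log2 difference of -0.32 (limma adjusted p = 0.036), both under 2-fold.

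The 3 genes that were called lay 5 numbers from the loci. Gh_D12G1623 was higher in the mutant, with 2.35, 3.64 and 3.97 FPKM in *Xu142fl*, against 1.04, 1.12 and 0.60 FPKM in Xu142 (log2 difference 1.75, standard error 0.30, limma adjusted p = 0.013). Gh_A12G1509 was lower, with 0.68, 0.84 and 0.65 FPKM in *Xu142fl*, against 1.89, 1.76 and 2.20 FPKM in Xu142 (log2 difference -1.32, standard error 0.21, limma adjusted p = 0.0097). Gh_D13G0803 was also lower, with 1.36, 1.58 and 1.72 FPKM in *Xu142fl*, against 3.52, 3.10 and 3.66 FPKM in Xu142 (log2 difference -1.10, standard error 0.17, limma adjusted p = 0.0089). None of the 3 passed at 0.001. The call of Gh_D12G1623 was lost without *Xu142fl* replicate 2 (limma adjusted p = 0.066). The calls of Gh_A12G1509 (0.058) and Gh_D13G0803 (0.056) were lost without Xu142 replicate 3, and with a pseudocount of 1 their log2 differences of -0.77 and -0.79 were under 2-fold.

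**Figure D4:**
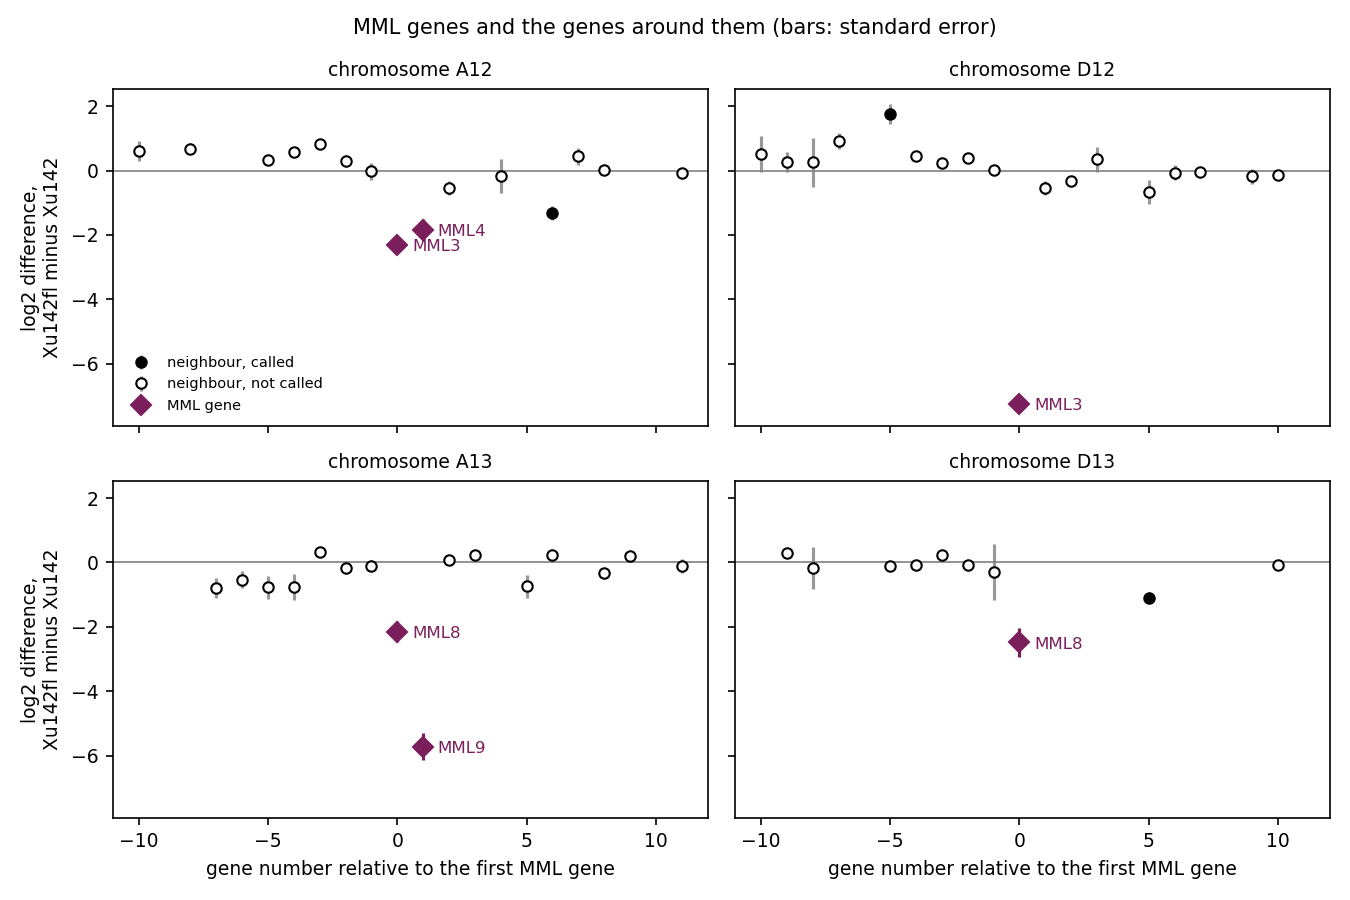
Log2 difference, *Xu142fl* minus Xu142, with its standard error (vertical axis), of the *MML* genes (purple diamonds) and of the tested genes up to 10 ID numbers to each side (circles), against the gene number relative to the first *MML* gene of the locus (horizontal axis). Filled circles are the 3 called genes (limma adjusted p within 0.05, 2-fold or more). The *MML* genes lie at -1.84 or below and the neighbours between -1.32 and 1.75. The *MML* genes were listed for being lower in these libraries and the neighbours chosen by ID number, so these ranges are no test.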

How the data were processed

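RNA-seq was performed on ovules of mixed stages (-3 and -1 DPA), with 3 libraries of *Xu142fl* and 3 of Xu142. After read filtering, the authors used the TM-1 genome as reference and RSEM for expression, and HISAT2 (2.1.0 in the submitters' processing notes) was used for new transcripts. The deposited values are FPKM with 2 decimals, which the authors normalized by transcript length and library size, with no stated scaling between libraries. The 6 columns were matched to libraries by title. No counts were analysed here, so the depth behind a single FPKM is unknown and no counting interval is given. Column sums ran from 804997 to 844877 FPKM, and column medians from 3.38 to 4.01 FPKM.

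Log2(FPKM + 0.1) of the 56395 genes averaging 0.1 FPKM or more was fitted with limma 3.58.1 in R 4.3.3, an intensity trend and Benjamini-Hochberg adjustment over all genes tested. The study used DEGseq with limits of 0.001 and a fold change of 2. That test needs counts and was not run. The limma fit was checked on simulated FPKM with the same spread for every gene. Unequal spreads and changes of weakly expressed genes were not covered by that check. Levels of 2 genes were compared within libraries by exact sign-flip tests. Python 3.11.15 with pandas 2.3.3, numpy 2.4.6 and matplotlib 3.10.9 was used. P-values of limma rest on the spread between libraries of the same line, pooled in part over all genes tested. Those of the sign-flip test rest on the differences within libraries, and are smallest whenever all differences have the same sign. Both concern these libraries alone.

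The genes and lists were chosen with earlier results of these data known. Named genes are the 6 *MML* genes, the genes within 2 ID numbers of a locus, those within 10 that were called, and the 3 nearest profiles of each *MML* gene among genes averaging 1 FPKM or more. Outside these rules, Gh_A12G1495, Gh_A12G1499, Gh_A12G1500 and Gh_D12G1624 were named after their values were seen. Primer sequences come from the supplementary table of the study. The RefSeq gene table of Gossypium_hirsutum_v2.1 matched 0 of the IDs. It lists 1 gene with an *MML* synonym, on D12, which carries the synonyms of both *MML3* copies, so no coordinates are given. Alternatives were pseudocounts of 1 and 0.01, no filter or one at 1 FPKM, scaling by median ratios, quantiles, other limma settings, annotated genes alone, a replicate block, a wider window and each library left out.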

Additional observations from a re-analysis of the deposited data

How the results depend on the processing

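The log2 differences of the 6 *MML* genes stayed negative under every alternative run, and only the pseudocount moved them by more than the spread between replicates. With a pseudocount of 1 they were -5.48 for *MML3* on D12, -0.86 for *MML4*, -1.06 and -0.99 for *MML8* on A13 and D13 and -2.76 for *MML9*. With a pseudocount of 0.01 they were -7.66 for *MML3* on D12, -3.15 for *MML8* on D13 and -8.40 for *MML9*. A pseudocount of 1 also moved *MML3* D12 minus A12 to -2.77, *MML8* D13 minus A13 to -0.20, *MML3* minus *MML4* to 2.71 and *MML9* minus *MML8* to -0.38 in *Xu142fl*, and *MML3* minus *MML4* to 4.04 in Xu142. A pseudocount of 0.01 moved *MML8* D13 minus A13 to -1.19 and *MML9* minus *MML8* to -4.23 in *Xu142fl*. The members at or under 1 FPKM in *Xu142fl* are thus the ones whose differences depend on the scale.

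Leaving out 1 library, the differences ranged from -7.42 to -7.05 for *MML3* on D12, -2.38 to -2.21 on A12, -2.06 to -1.58 for *MML4*, -2.30 to -1.89 and -2.71 to -2.12 for *MML8* on A13 and D13, and -6.10 to -5.34 for *MML9*. With 5 libraries or 4, the exact test over libraries has fewer permutations, so its p-values say nothing about stability.

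The 423 genes called with an adjusted p within 0.001 became 37 (without Xu142 replicate 3) to 273 (without *Xu142fl* replicate 1) with 1 library left out, and 151 without the 2 libraries that stood apart, chosen after seeing the data. The 3463 called at 0.05 became 1936 to 4609 with 1 library left out 1915 with a pseudocount of 1 and 4662 without the 2 libraries that stood apart. Quantile normalization gave 1169 higher and 2193 lower, against 940 and 2523. The count of called neighbours was 3, 1 with a pseudocount of 1, 0 at an adjusted p of 0.001 (16 had an unadjusted p under 0.05), 6 with a window of 25 numbers, and 1 (without Xu142 replicate 3) to 5 (without *Xu142fl* replicate 1) with 1 library left out.

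Replicate numbers are shared by the lines, and the deviations of same-numbered libraries correlated at -0.25, -0.23 and 0.14. With 3 libraries per line these values cannot settle whether the numbers pair the samples, and the labels do not say. The main fit treated the libraries as unpaired. With a replicate block, 2 genes were called at 0.001 and 2048 at 0.05, and 0 neighbours, and the log2 differences did not change. Each line has 3 libraries of mixed stages, so a difference in stage or in the share of each stage cannot be told apart from the line.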
